A study of Mus musculus with 4 samples.

Results

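The 10 genes described here encode the cytokines by which T cells act on other cells: Il4, Il13, Ifng, Il2, Il17a, Il10, Il21, Il22, Tnf and Csf2. They were taken by symbol from the 32285 genes listed in single-cell RNA sequencing counts of mouse liver, and all 10 were found. The study placed male C57BL/6J mice on a normal diet (NCD) or on a high-fat diet that induces non-alcoholic fatty liver disease (HFD), and gave a further set of HFD-fed mice Jiangtang Qingre Formula, a herbal formula given by mouth (JQF). NCD and HFD mice were given water in its place. Livers were perfused and digested before 3' libraries were made, and there was 1 library each for NCD and JQF and 2 for HFD, called HFD 1 and HFD 2 here. Any comparison therefore sets 1 library against 2, and the spread between the HFD pair is the only replicate error.

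Effector cytokines are transcribed after a T cell, an innate-like lymphocyte or a myeloid cell is triggered, and each is tied to a type of response. Ifng and Tnf belong to type 1 immunity and activate macrophages, Il4 and Il13 belong to type 2 immunity, and Il17a and Il22 belong to type 17 immunity at barriers. Il2 and Il21 act on other lymphocytes, Il10 restrains inflammation, and Csf2 encodes GM-CSF, a growth factor for myeloid cells. The mouse liver is rich in natural killer T (NKT) cells, innate-like T cells that depend on the transcription factor Zbtb16 (PLZF) and can release Il4 and Ifng within hours, in type 1 innate lymphoid cells (ILC1), and in Kupffer cells, its resident macrophages.

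After filtering, 5975 NCD, 6516 HFD 1, 10259 HFD 2 and 8540 JQF cells were kept, with medians of 13081, 7608, 7874 and 8884 unique molecular identifiers (UMIs, 1 per captured transcript) per cell. The libraries differed in make-up: endothelial cells were 61.6% of NCD cells against 1.5% to 10.6% of the others, and T cells were 12.2%, 30%, 19.3% and 41.6% of NCD, HFD 1, HFD 2 and JQF cells. The labels give the cell type as immune cells, and also a hematopoietic stem cell line, although the tissue is liver. Gating on marker genes found 8215 T cells, 862 NK cells, 3656 macrophages, 1872 monocytes, 2494 dendritic cells and 1334 neutrophils, beside endothelial, epithelial and liver cells. Pairs of libraries shared 12 to 27 cell barcodes, at most 0.316% of the smaller library. UMIs outside called cells were 6.68% to 10.5% of a library, and endothelial cells, which should lack T cell cytokines, serve below as a gauge of such free RNA; their median depths were 15423, 6312.5, 6036 and 7904 UMIs against 10651.5, 7203, 6518 and 7979 in T cells.

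Values are given as UMIs per 1000000 UMIs of the gated cells (CPM), as the share of cells with at least 1 UMI, or as counts. With 1 NCD and 1 JQF library, the edgeR quasi-likelihood test on summed counts rested on 1 residual degree of freedom, from the HFD pair. It assumed that NCD and JQF vary as HFD does, and it drew the spread of each gene toward a value shared by all genes. Adjusted p-values are Benjamini-Hochberg values over all genes tested in a cell type, and a gene is called where its value lies under 0.05. In T cells the HFD libraries differed from NCD in 11.2% of the 14866 genes tested, 4.1% higher and 7.06% lower. JQF differed from HFD in 0.928%, 0.605% higher and 0.323% lower. Of the 10 cytokine genes, all of which passed the filter on low counts in T cells, 3 were called in HFD against NCD (Il4 and Il13 lower, Il17a higher) and 3 in JQF against HFD (Il4 and Csf2 higher, Il10 lower). Il13 passed the filter only through NCD and JQF, so a call of it could only point lower in HFD. Both comparisons use the same HFD libraries.

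**Figure D1:**
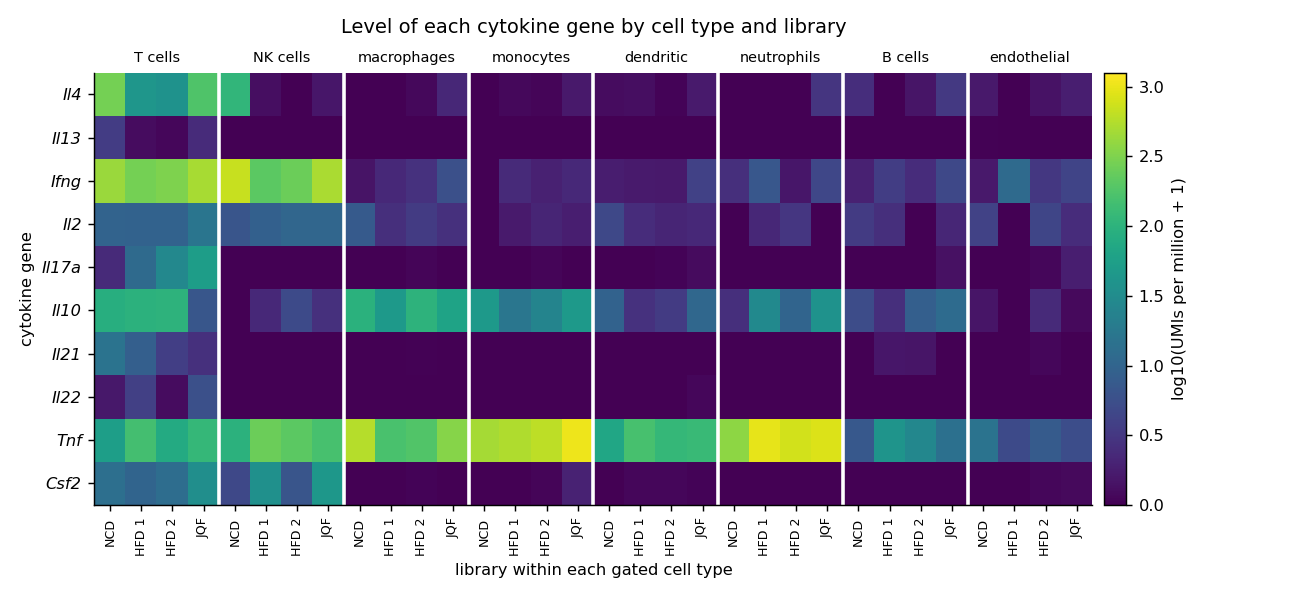
Colour gives log10(CPM + 1) of each cytokine gene (rows) in each library of 8 gated cell types (columns). Il17a, Il21 and Il22 show in the T cell block, Il4 there and in the NCD NK cells, Ifng in T and NK cells, and Tnf and Il10 in myeloid cells as well.

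T cells held most UMIs of 7 of the 10 genes in every library. They contributed 84.6% to 89.7% of all Il4 UMIs, 77.6% to 83.7% of Ifng UMIs, 93.6% to 100% of Il17a UMIs, 83.3% to 100% of Il21 UMIs, 97.5% to 100% of Il22 UMIs and 52.5% to 91.6% of Csf2 UMIs. The seventh was Il13, with 66.7% to 86.8%, but there were only 30, 6, 3 and 53 such UMIs in the NCD, HFD 1, HFD 2 and JQF libraries. NK cells were the next source of Ifng, with 4.69% to 11.6% of its UMIs, and held 42.3% of the Csf2 UMIs in HFD 1 against 1.68% to 6.16% in the other libraries. Tnf had no single main source: T cells held 5.58% to 17.1% of its UMIs, macrophages 8.99% to 29.5%, monocytes 4.81% to 30.3%, dendritic cells 5.89% to 16.3% and neutrophils 5.23% to 10.4%. Il10 moved between sources, T cells holding 60.7% and 67.8% of its UMIs in NCD and HFD 1, but 27.1% in HFD 2, where macrophages held 58.3%, and 11.6% in JQF. Cells that carried the markers of several types held 1.42% to 15.4% of the UMIs of Il4, Ifng, Il10, Tnf and Csf2 and were left out of every cell type.

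**Figure D2:**
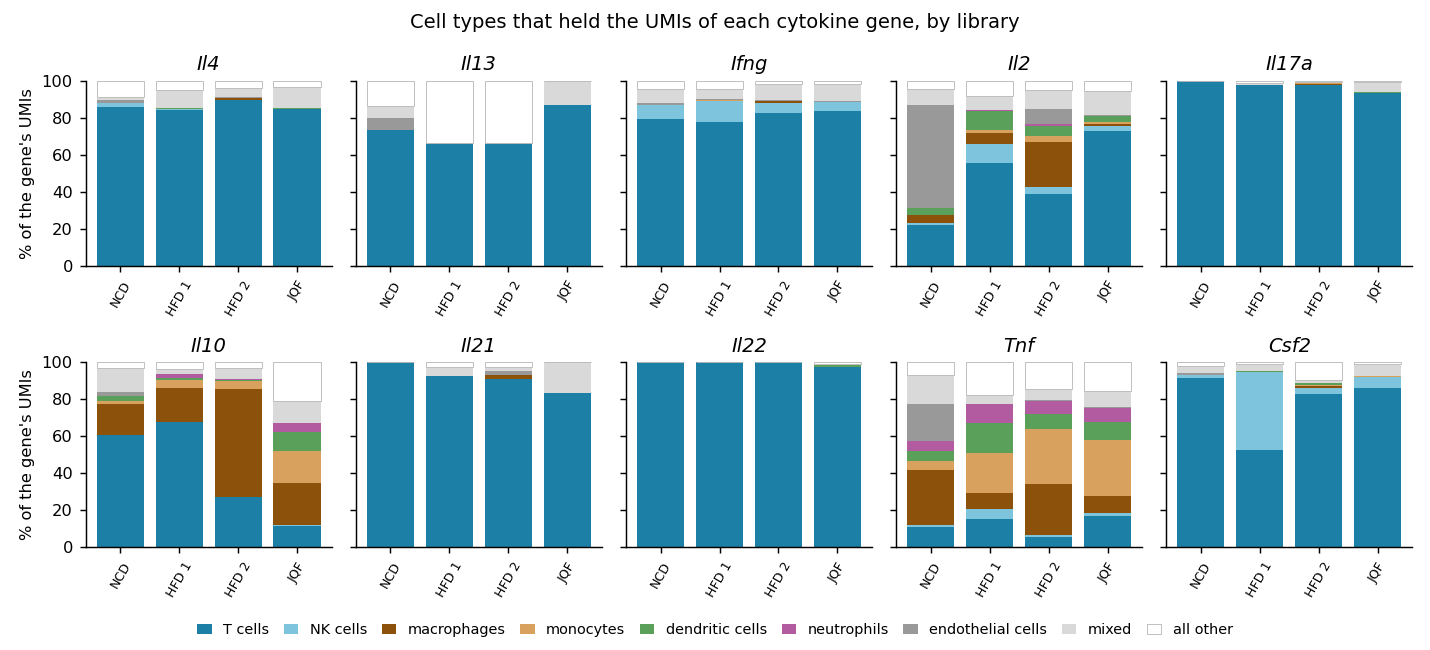
Each bar is 1 library and its segments give the percentage of a gene's UMIs that lay in each gated cell type; mixed cells carry markers of several types. T cells fill most of the bars for Il4, Ifng, Il17a, Il21, Il22 and Csf2, while the Il10 and Tnf bars are divided among T cells and myeloid cells.

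Il4, the cytokine that drives type 2 responses and antibody class switching, was lower in HFD T cells than in NCD T cells and higher again with JQF. T cells carried 285 CPM in NCD, 41.5 and 37.0 CPM in HFD 1 and HFD 2, and 176 CPM in JQF. The HFD libraries lay close together and below both others. Il4 fell by 2.88 (SE 0.17) on the log2 scale in HFD against NCD (edgeR adjusted p = 0.000436), and JQF was 2.27 (SE 0.17) above HFD (edgeR adjusted p = 0.00309). The share of T cells with an Il4 UMI was 20% in NCD (95% Clopper-Pearson interval 17.2% to 23.1%), 7.42% in each HFD library (6.30% to 8.67% in HFD 1 and 6.30% to 8.66% in HFD 2) and 34.1% in JQF (32.5% to 35.7%). Thinned to 3000 UMIs per cell, the shares were 14.6%, 4.99%, 5.13% and 21.0%. JQF thus had a larger share of Il4-positive T cells than NCD but a lower level, and each positive cell held 17.1 UMIs on average in NCD against 3.68 to 4.71 in the other libraries. In endothelial cells the share was 0.760% in NCD, 0 of 98 cells in HFD 1, which by a floor of 3 counts allows a share of up to 3.06%, 0.276% in HFD 2 and 0.701% in JQF, and barcodes with no cell carried 51.7, 7.65, 3.56 and 52.1 CPM.

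NKT-like cells, gated as T cells with at least 3 of Zbtb16, Klrb1c, Trav11, Trav11d, Cxcr6 and Il2rb, held 89.0%, 67.7%, 68.0% and 76.5% of the T cell Il4 UMIs in NCD, HFD 1, HFD 2 and JQF. Their share of T cells was 26.8% in NCD, 12.4% in HFD 1, 10.3% in HFD 2 and 46.5% in JQF. Within them Il4 stood at 1067 CPM in NCD, 203 and 256 CPM in HFD 1 and HFD 2, and 289.9 CPM in JQF, and 65.8%, 40.7%, 47.1% and 57.2% of the cells had a UMI. NCD NKT-like cells stood apart from the other libraries, although 3 cells held 31.8% of their Il4 UMIs. A fit on NKT-like cells alone, added after seeing the data, gave a log2 fold change of -2.40 (SE 0.21) in HFD against NCD (edgeR adjusted p = 1.27e-12) and of 0.41 (SE 0.21) in JQF against HFD (edgeR adjusted p = 0.449). In that fit 24.9% and 2.44% of all genes tested were called in the corresponding comparisons. Holding JQF levels in each T cell gate but weighting the gates as in HFD 1 or HFD 2 gave 92.9 and 73.2 CPM of Il4, and holding HFD 1 or HFD 2 levels with the gate weights of JQF gave 106 and 135 CPM, all between the measured HFD and JQF values.

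The other T cell gates held the rest of the Il4, in NCD, HFD 1, HFD 2 and JQF. CD4 T cells carried 67.8 CPM in NCD, 12.0 and 14.1 CPM in HFD 1 and HFD 2 and 106 CPM in JQF, but 3 cells held 100% of these UMIs in NCD and 68.9% in JQF. CD8 T cells carried 0.338, 0.128, 0.324 and 22.9 CPM, and 3 of the JQF cells held 84.5% of the 161 UMIs there. Without the NKT-like cells, Il4 in T cells was still called in both comparisons, at -1.5 (SE 0.19) and 2.52 (SE 0.18) on the log2 scale (edgeR adjusted p = 0.00990 and 0.0137). That fit was added after seeing the data, and the share of all genes called in it is not given here. Its cells can include NKT cells with fewer than 3 of the markers. Type 17 or gamma-delta T cells carried 166, 14.1, 62.8 and 110.1 CPM. T cells outside every named gate carried 122, 85.1, 88.4 and 138 CPM and, after the NKT-like cells, held most Il4 UMIs in HFD, with 166 of 647 in HFD 1 and 115 of 541 in HFD 2. Basophils or mast cells, classical Il4 producers, numbered 14 in all and carried 147 to 1007 CPM on 3 to 21 UMIs a library. In the NK gate Il4 was called lower in HFD, but the NCD value of 60 UMIs came from 2 cells against 1 and 0 UMIs in the HFD libraries (ratio 487, counting interval 84.0 to 19532), and with cells grouped by Leiden clusters the log2 difference was 0.50 (edgeR adjusted p = 0.839).

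Il13, the neighbour of Il4 in the type 2 cytokine locus and a driver of goblet cell and fibrotic responses, was scarce and followed the same cells. T cells held 22 UMIs in NCD, 4 and 2 UMIs in HFD 1 and HFD 2 and 46 UMIs in JQF, or 2.51, 0.257, 0.137 and 1.42 CPM. The HFD libraries were the lower ones, and the log2 difference from NCD was -3.64 (SE 0.90; edgeR adjusted p = 0.0394). Because Il13 passed the filter on low counts only through the libraries where it was high, this call is a description and supports nothing further. The ratio of NCD to HFD was 12.6, with an exact counting interval of 4.97 to 38.1. That interval takes UMIs as independent, but 3 cells held 77.3% of the NCD UMIs, so it is likely too narrow. The call was lost when cells were thinned to 3000 UMIs (edgeR adjusted p = 0.0722). JQF was 2.91 (SE 0.87) above HFD, which did not pass (edgeR adjusted p = 0.227). Of the T cells with an Il13 UMI, 6 of 7 in NCD, 3 of 3 in HFD 1, 2 of 2 in HFD 2 and 18 of 28 in JQF also had an Il4 UMI. NKT-like cells held 17, 4, 1 and 35 of the T cell UMIs.

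Il4 and Il13 lie on the minus strand of chromosome 11 in mouse GRCm38, at chr11:53602982-53618669 and chr11:53631324-53634702. Upstream sequences are shown as examples for Il4, Il13, Ifng on chromosome 10 and Il17a on chromosome 1. Each is the 250 bases before the RefSeq transcription start (GRCm38.p6), printed 5' to 3' on the strand of the gene. Windows are chr11:53618666-53618915 (minus) for Il4, chr11:53634703-53634952 (minus) for Il13, chr10:118440796-118441045 (plus) for Ifng and chr1:20730655-20730904 (plus) for Il17a. Capitals mark the core letters GGAAA on either strand, read by NFAT factors, which carry the calcium signal of the T cell receptor.
Il4: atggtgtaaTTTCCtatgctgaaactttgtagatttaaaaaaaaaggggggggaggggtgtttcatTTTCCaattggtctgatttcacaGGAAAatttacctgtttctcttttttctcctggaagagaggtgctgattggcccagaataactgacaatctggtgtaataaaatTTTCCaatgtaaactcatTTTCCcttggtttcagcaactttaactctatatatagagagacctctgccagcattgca
Il13: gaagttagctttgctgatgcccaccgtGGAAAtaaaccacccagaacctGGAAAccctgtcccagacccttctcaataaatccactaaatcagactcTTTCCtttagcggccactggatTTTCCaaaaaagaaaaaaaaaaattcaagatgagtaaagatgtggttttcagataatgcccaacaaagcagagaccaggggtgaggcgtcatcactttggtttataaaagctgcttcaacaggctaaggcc
Ifng: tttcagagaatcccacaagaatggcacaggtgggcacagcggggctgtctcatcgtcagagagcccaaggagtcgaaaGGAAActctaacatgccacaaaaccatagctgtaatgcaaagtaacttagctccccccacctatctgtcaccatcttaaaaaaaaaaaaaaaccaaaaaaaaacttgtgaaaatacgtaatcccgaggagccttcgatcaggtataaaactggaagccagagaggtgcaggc
Il17a: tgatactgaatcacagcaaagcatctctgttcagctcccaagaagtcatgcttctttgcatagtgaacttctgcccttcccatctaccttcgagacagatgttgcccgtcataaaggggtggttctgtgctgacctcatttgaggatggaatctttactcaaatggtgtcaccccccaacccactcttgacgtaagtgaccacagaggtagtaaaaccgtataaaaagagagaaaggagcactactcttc
The Il4 window held 5 such cores, the Il13 window 4, the Ifng window 1 and the Il17a window 0. These genes were picked with their T cell results known, so the counts say nothing about the differences between libraries. Of 32817 mouse promoters of this length, 55.6% held at least 1 core and 1.58% held 4 or more. Promoters matched for 9 of the 10 genes, all but Il10, and the core was present in 8 of them: Il21 and Tnf had 3, Il2 and Csf2 had 2, and Il22 had 1. The TATA box TATAAA, searched on both strands, was found in 6 of the 9, against 12.4% of all promoters. AP-1 letters (TGANTCA) occurred in Il17a alone, against 6.75% of all promoters. The GATA core AGATAA occurred in Il13, Il22 and Csf2, against 9.99%, and the T-box letters TCACAC in Il21, against 12.3%. A match shows letters and not a bound site.

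**Figure D3:**
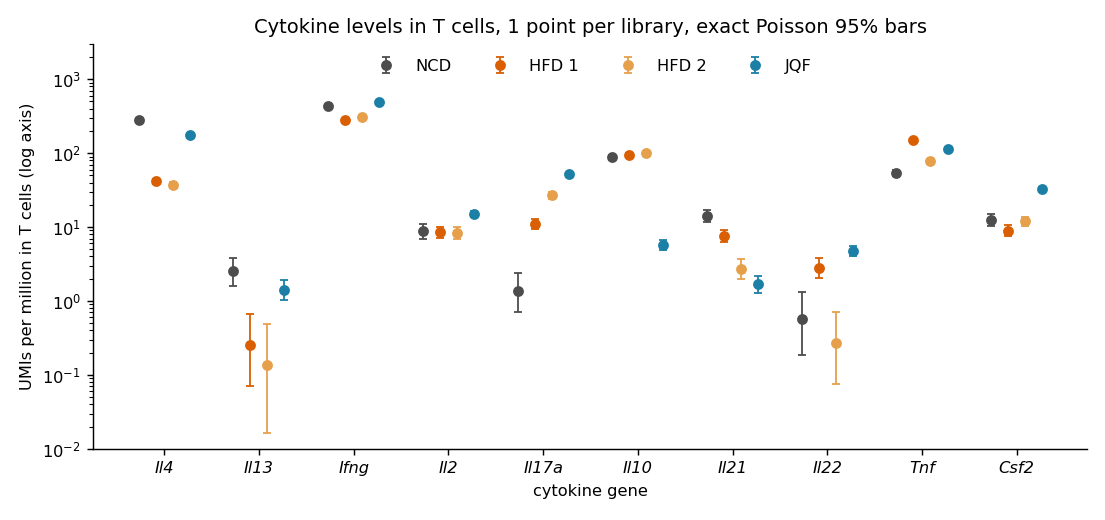
Points give CPM in T cells for each library on a log axis, with exact Poisson 95% bars that cover counting error only. The HFD libraries lie below NCD and JQF for Il4 and Il13, and JQF lies below the other 3 libraries for Il10.

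Ifng, the signature cytokine of type 1 lymphocytes, did not pass the test in T cells as a whole. T cells carried 432 CPM in NCD, 282 and 313 CPM in HFD 1 and HFD 2 and 499 CPM in JQF, and 66.8%, 43.8%, 53.4% and 66.6% had a UMI. Both HFD libraries lay below the other libraries. In endothelial cells the share was 0.978%, 3.06%, 1.47% and 2.63%, and barcodes with no cell carried 78.2, 94.4, 67.6 and 195 CPM of Ifng, highest in JQF, and the part of this free RNA in the Ifng differences was not tested. The log2 difference was -0.55 (SE 0.20) for HFD against NCD and 0.84 (SE 0.20) for JQF against HFD (edgeR adjusted p = 0.122 for each). The latter was called with DESeq2 (adjusted p = 0.0214), without the filter on low counts and after thinning. In 3 gates the HFD libraries were again the lowest: CD8 T cells carried 417, 299.8, 321 and 409.9 CPM, CD4 T cells 461, 244, 269 and 405 CPM, and NKT-like cells 516, 334, 390.1 and 612 CPM. In NKT-like cells alone, a fit also added after seeing the data, Ifng was called in both comparisons, at -0.70 (SE 0.21; edgeR adjusted p = 0.0106) and 0.83 (SE 0.20; edgeR adjusted p = 0.0130). In CD4 T cells alone it was called in HFD against NCD, at -0.82 (SE 0.20; edgeR adjusted p = 0.0242). Among CD4 T cells 14.4% of genes were called in HFD against NCD and 0.275% in JQF against HFD. Among NKT-like cells these shares were 24.9% and 2.44%. Foxp3 T cells, the regulatory lineage, carried 35.9, 88.3, 152 and 112 CPM.

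In NK cells and ILC1, Ifng was lower in HFD than in NCD and higher with JQF. The gate held 50, 389, 193 and 230 cells, and Ifng stood at 684 CPM in NCD, 205 and 249.9 CPM in HFD 1 and HFD 2, and 509 CPM in JQF. HFD libraries again lay below both others, with 35.2% and 39.4% of cells positive against 84% in NCD and 67.0% in JQF. Ifng fell by 1.80 (SE 0.21) on the log2 scale in HFD (edgeR adjusted p = 0.000209) and was 1.31 (SE 0.20) higher in JQF (edgeR adjusted p = 0.00753). Both calls were kept under each of the 7 alternatives run. In NK cells 14.8% of 10172 genes were called in HFD against NCD, 4.98% higher and 9.83% lower, and 2.9% in JQF against HFD, 2.45% higher and 0.452% lower. Of the 5 cytokine genes that passed the filter there, 3 were called in the former comparison (Ifng and Il4 lower, Tnf higher) and 1 in the latter, Ifng. Il4 passed the filter there only through NCD, so its call had to point lower in HFD and is no support. The make-up of the gate differed as well: 42 of 50 NCD cells were ILC1-like and 5 conventional NK cells, against 262 and 84 of 389 in HFD 1, 91 and 63 of 193 in HFD 2, and 115 and 71 of 230 in JQF. Within ILC1-like cells Ifng was 758, 220.2, 300.0 and 487 CPM, and within conventional NK cells 340.4, 144, 211 and 507 CPM.

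Immediate-early genes, which respond to activation and to tissue handling, moved with Ifng in NK cells. Of 12 such genes, 10 were called lower in HFD against NCD, where 9.83% of all genes tested in NK cells were. In JQF against HFD 8 were called higher, where 2.45% of all genes were. Their medians were -1.48 and 1.21, against 0.12 and -0.01 over all genes. Junb, an AP-1 subunit, stood at 3438, 693, 865 and 1873 CPM in NCD, HFD 1, HFD 2 and JQF. Dusp1, a phosphatase that shuts off MAP kinases, stood at 1983, 471, 523 and 1234 CPM. The chemokine genes Ccl3 and Ccl4 moved the same way, Ccl3 from 1590.0 to 249.7 and 418 and then 1268 CPM. In T cells, against 11.2% and 0.928% of all genes, 3 of the 12 were called in HFD against NCD (Ier3 higher, Atf3 and Junb lower) and 4 in JQF against HFD, all higher (Atf3, Ier2, Fosb and Jun). The part of activation during digestion in the cytokine differences was not tested.

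Tnf, the inflammatory cytokine shared by lymphocytes and myeloid cells, was called higher in HFD in NK cells, dendritic cells and neutrophils. In macrophages it lay lower but did not pass. T cells carried 54.0, 149, 78.1 and 114 CPM, with NCD the lowest, and HFD against NCD did not pass (log2 1.04, SE 0.32, edgeR adjusted p = 0.0766), although DESeq2 called it (adjusted p = 0.0419), as did edgeR under 2 other settings. In CD4 T cells alone the values were 51.0, 221, 153 and 138 CPM, and Tnf was called at 1.89 (SE 0.26; edgeR adjusted p = 0.00258). In NKT-like cells alone they were 87.8, 210.0, 142 and 128 CPM, called at 0.82 (SE 0.22, edgeR adjusted p = 0.00450). In HFD against NCD 14.4% of all genes tested were called in the CD4 fit and 24.9% in the NKT-like fit. NK cells carried 96.9, 255, 209.9 and 157 CPM, and Tnf was called higher in HFD at 1.06 (SE 0.25; edgeR adjusted p = 0.0161), which DESeq2 did not call (adjusted p = 0.129). ILC1-like cells carried 112, 311, 309 and 161 CPM and conventional NK cells 0, 29.1, 70.2 and 68.7 CPM, and the part of the make-up of the gate in the call was not tested.

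Among myeloid cells, neutrophils carried 370.3 CPM of Tnf in NCD, 958 and 766 CPM in HFD 1 and HFD 2 and 861 CPM in JQF. NCD was the lowest library and Tnf was called higher in HFD at 1.18 (SE 0.26; edgeR adjusted p = 0.000211). Dendritic cells carried 68.0, 155, 116 and 125 CPM, called at 0.89 (SE 0.21; edgeR adjusted p = 0.0251), a call lost with DESeq2 and after thinning. Macrophages ran the other way, with 563 CPM in NCD, 159 and 178 CPM in HFD 1 and HFD 2 and 339 CPM in JQF, but the log2 difference of -1.68 (SE 0.18) did not pass (edgeR adjusted p = 0.0575). It passed under 5 of 7 alternatives, DESeq2 among them (adjusted p = 4.92e-07). Of the macrophages, 83.9% (NCD), 9.06% (HFD 1), 47.3% (HFD 2) and 54.5% (JQF) were Kupffer cells, and within them Tnf was 479, 37.2, 101 and 174 CPM. Monocytes, with 27 cells in NCD, were not tested and carried 480.2, 542, 615 and 1045 CPM, JQF being the highest. In endothelial cells Tnf stood at 14.2, 4.02, 6.87 and 4.43 CPM. Barcodes with no cell carried 54.4, 243, 212 and 185 CPM of Tnf in NCD, HFD 1, HFD 2 and JQF, at or above the T cell values and lowest in NCD as in T, NK, dendritic cells and neutrophils, and the part of this free RNA in those differences was not tested.

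Il10, which dampens macrophage and dendritic cell responses, was the most changed cytokine gene of T cells under JQF. T cells carried 87.7 CPM in NCD, 95.8 and 100.3 CPM in HFD 1 and HFD 2 (98.0 ± 3.13, SD, n = 2) and 5.74 CPM in JQF. The NCD and HFD libraries lay together and JQF far below them. The 4 Leiden clusters of T cells each held cells of every library, in uneven numbers. The counts that follow are of all cells in a cluster, of which 88.4% to 95.4% were gated as T cells. The largest held 285, 361, 320 and 2164 cells of NCD, HFD 1, HFD 2 and JQF, and another 228, 546, 860 and 136. The remaining clusters held 181, 859, 630 and 883 cells, and 97, 382, 290 and 399 cells. Barcodes with no cell carried 12.9, 39.2, 75.8 and 18.1 CPM of Il10. Il10 fell by 3.99 (SE 0.22) on the log2 scale in JQF against HFD (edgeR adjusted p = 0.000942), and HFD against NCD was 0.15 (SE 0.18; edgeR adjusted p = 0.620). The share of T cells with a UMI was 10.7% (8.54% to 13.2%), 11.8% (10.4% to 13.3%), 12.3% (10.9% to 13.8%) and 1.86% (1.44% to 2.36%). Endothelial cells had 0.760%, 0%, 0.920% and 0.175%, the value of HFD 1 coming from 98 cells with a floor of 3.06%.

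The cells that carried Il10 differed by library. CD8 T cells, cytotoxic in their usual role, carried 41.3 CPM in NCD, 173 and 122 CPM in HFD 1 and HFD 2 and 1.42 CPM in JQF. In HFD 20.7% and 17.4% of them had a UMI, against 6.52% in NCD, where 3 cells held 73.0% of the UMIs, and 1.08% in JQF. CD8 T cells held 90.4% and 76.8% of the T cell Il10 UMIs in HFD 1 and HFD 2, against 15.9% in NCD and 5.38% in JQF. In a fit on CD8 T cells alone, added after seeing the data, where 3.24% of genes were called in HFD against NCD and 0.365% in JQF against HFD, Il10 was called in both, at 1.85 (SE 0.29; edgeR adjusted p = 0.0257) and -6.55 (SE 0.41; edgeR adjusted p = 0.0122). On counts the ratio of HFD to JQF was 102, with a counting interval of 55.4 to 213. CD4 T cells carried 205, 28.2, 129.6 and 21.0 CPM, and Foxp3 T cells 113, 86.3, 127 and 77.7 CPM. The Foxp3 T cells, regulatory cells known to make Il10, were not fitted on their own. The CD8 gate took 49.5% (HFD 1), 59.2% (HFD 2) and 20.8% (JQF) of T cells, and weighting JQF levels by the gate shares of HFD 1 or HFD 2 gave 7.34 and 6.46 CPM, beside the measured 5.74 CPM. HFD 1 and HFD 2 levels at the gate shares of JQF gave 46.5 and 57.9 CPM, beside the measured 95.8 and 100.3 CPM. Eomes, a transcription factor of effector CD8 T and NK cells, and the receptor gene Il10ra were called lower with JQF in T cells too, Eomes at 107, 76.3, 105 and 21.5 CPM and Il10ra at 49.0, 102, 111 and 36.7 CPM.

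**Figure D4:**
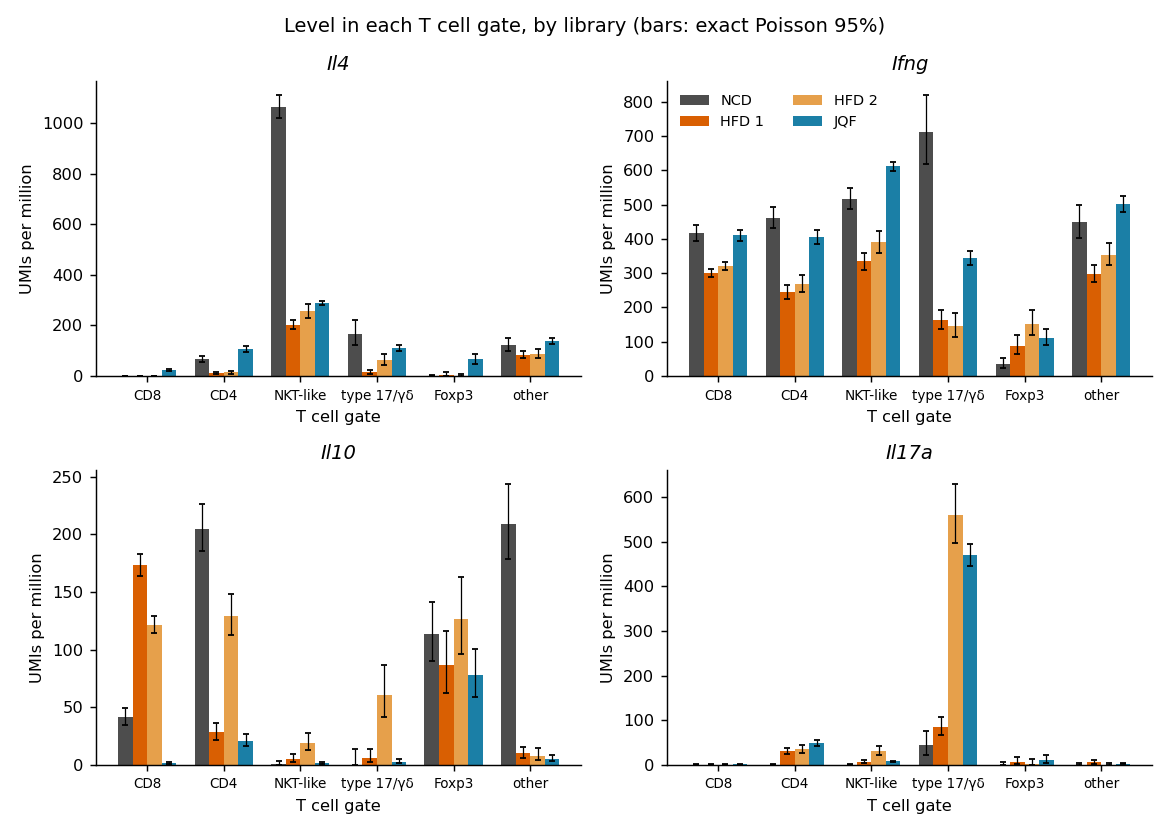
Bars give CPM of Il4, Ifng, Il10 and Il17a in 6 T cell gates, coloured by library, with exact Poisson 95% bars. Il4 stands out in NCD NKT-like cells, Il10 in HFD CD8 T cells, and Il17a in type 17 or gamma-delta T cells of HFD 2 and JQF.

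In myeloid cells Il10 was called in no comparison of JQF with HFD. Macrophages carried 93.6, 46.7, 100.2 and 62.0 CPM, and Kupffer cells 106, 109, 121 and 94.9 CPM. Monocytes carried 45.7, 15.7, 24.0 and 45.1 CPM. Dendritic cells carried 8.46 CPM in NCD, 1.75 and 2.50 CPM in HFD 1 and HFD 2 and 9.87 CPM in JQF, and Il10 was called lower in HFD at -2.09 (SE 0.38; edgeR adjusted p = 0.0123). That NCD value rested on 32 UMIs in 9 cells, 81.2% of them in 3 cells, and after thinning no NCD dendritic cell had a UMI. JQF against HFD stood at 2.28 (SE 0.32) in dendritic cells and did not pass (edgeR adjusted p = 0.0551). Neutrophils carried 1.62, 28.9, 8.93 and 37.2 CPM, and Il10 was called higher in HFD (edgeR adjusted p = 0.00319). The NCD value was 1 UMI, and Il10 passed the filter there only through the other libraries, so its call had to point higher. The ratio of HFD to NCD was 11.2 with a counting interval of 1.95 to 451, and 4 of 6 alternatives lost the call.

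In dendritic cells 23.3% of genes were called in HFD against NCD and 0.367% in JQF against HFD, and of the 5 cytokine genes tested 2 were called in the former and 0 in the latter. In neutrophils the background was 15% and 1.15%, and 2 and 0 of the 3 tested were called. The neutrophil fit gave the HFD spread of a single gene almost no weight, as set out in the methods. In macrophages 0% of genes were called in either comparison by edgeR (0 of 13046 genes), so none of the 4 cytokine genes tested was called. There, 4244 and 1068 genes had an unadjusted p under 0.05, and DESeq2 called 802 and 23. A macrophage difference that missed the threshold is therefore not a sign of equal levels.

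Il17a, which recruits neutrophils, was the cytokine gene called higher in HFD T cells. T cells carried 1.37 CPM in NCD, 10.9 and 26.7 CPM in HFD 1 and HFD 2 and 51.7 CPM in JQF. NCD was the lowest library, with 12 UMIs in 3 cells. HFD was 3.77 (SE 0.67) above NCD on the log2 scale (edgeR adjusted p = 0.0137), the ratio of counts being 13.6 with a counting interval of 7.70 to 26.4. That interval takes UMIs as independent, but 3 cells held 53.5% and 62.1% of the T cell UMIs in HFD 1 and HFD 2. JQF against HFD was 1.54 (SE 0.43) and did not pass (edgeR adjusted p = 0.184). Few cells carried the transcript, 0.411% (0.085% to 1.20%), 1.13% (0.707% to 1.70%), 1.06% (0.657% to 1.62%) and 2.62% (2.12% to 3.20%) of T cells. The NCD interval overlapped those of both HFD libraries. In endothelial cells the share was 0%, 0% of 98 cells, 0.092% and 0.701%. Barcodes with no cell carried 0.546, 1.91, 3.43 and 12.5 CPM of Il17a, in the same order as the T cells. The part of this free RNA in the differences was not tested. In type 17 or gamma-delta T cells, gated on at least 3 of 7 markers, among them Trdc, Tcrg-C1 and Il23r, the level was 43.2, 84.4, 562 and 470.3 CPM. The HFD libraries differed widely there, and 3 cells held 94.4% and 79.0% of their UMIs. CD4 T cells carried 0, 30.4, 34.2 and 48.4 CPM.

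Il22, which acts on epithelia and hepatocytes, rested on few cells. T cells held 5, 44, 4 and 155 UMIs in 1, 3, 3 and 15 cells, and neither comparison passed (edgeR adjusted p = 0.5 and 0.609). The 44 UMIs of HFD 1 lay mostly in 1 CD4 T cell with 22 UMIs and 1 NKT-like cell with 20 UMIs. The features list holds a near copy, Iltifb, with which reads could be shared, so the Il22 counts are uncertain. Of the T cells with Il22, 1, 1 and 4 in HFD 1, HFD 2 and JQF also had Il17a.

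Il21, a helper cytokine for B cells and CD8 T cells, was read in 30, 52, 24 and 22 T cells, at 14.0, 7.57, 2.74 and 1.70 CPM, and did not pass in either comparison (edgeR adjusted p = 0.104 and 0.399). NCD was the highest library, but in the T cells outside every named gate 3 cells held 87.8% of 74 of its 123 UMIs. CD4 T cells carried 24.5, 11.1, 3.06 and 7.97 CPM and CD8 T cells 0.338, 9.89, 3.67 and 0.711 CPM. Il21 overlaps an antisense gene, Gm12534, on the opposite strand. Cells with Il21 often had Il10: 40.0%, 63.5%, 41.7% and 13.6% of them did, against 10.7%, 11.8%, 12.3% and 1.86% of all T cells.

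Il2, the T cell growth factor, lay near the endothelial gauge in NCD and HFD 2, and in HFD 1 the gauge was too sparse to tell. T cells carried 8.79, 8.47, 8.41 and 15.1 CPM, and no comparison passed (edgeR adjusted p = 0.886 and 0.193). Endothelial cells carried 3.11, 0, 3.50 and 1.48 CPM and held 55.6% of the Il2 UMIs of the NCD library. The 98 endothelial cells of HFD 1 had a floor of 4.02 CPM and of 3.06% of cells. The share of T cells with a UMI was 7.95%, 5.63%, 4.59% and 10.4%, and of endothelial cells 5.00%, 0%, 2.12% and 1.23%. CD4 T cells carried 12.8, 17.5, 28.7 and 23.0 CPM, in each library more than the 8.79, 6.29, 3.24 and 12.1 CPM of CD8 T cells. Il2 overlaps Adad1 on the opposite strand.

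Csf2 was higher with JQF. T cells carried 12.4 CPM in NCD, 8.92 and 12.0 CPM in HFD 1 and HFD 2 (10.4 ± 2.15, SD, n = 2) and 32.8 CPM in JQF. JQF lay above the other 3 libraries, and the difference from HFD was 1.74 (SE 0.26) on the log2 scale (edgeR adjusted p = 0.0271). The call was lost when predicted doublets were removed (edgeR adjusted p = 0.0585). Within NKT-like cells the level was 36.0, 32.5, 45.9 and 39.5 CPM, and the fit on these cells alone gave 0.11 (SE 0.22; edgeR adjusted p = 0.927). Without the NKT-like cells JQF stood 2.09 (SE 0.35) above HFD, which did not pass (edgeR adjusted p = 0.0818). Type 17 or gamma-delta T cells carried 90, 17.6, 108 and 101 CPM. HFD 1 and HFD 2 levels weighted by JQF gate shares gave 18.9 and 33.5 CPM, and JQF levels weighted by the gate shares of HFD 1 and HFD 2 gave 19.1 and 14.8 CPM. NK cells carried 3.66, 35.1, 5.61 and 42.7 CPM, the HFD pair far apart. Barcodes with no cell carried 1.64, 5.02, 1.72 and 10.4 CPM of Csf2, highest in JQF as in T cells. Endothelial cells held 1, 0, 1 and 1 Csf2 UMIs. The part of free RNA in the Csf2 differences was not tested. Csf2 overlaps the antisense gene Gm12223.

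**Figure D5:**
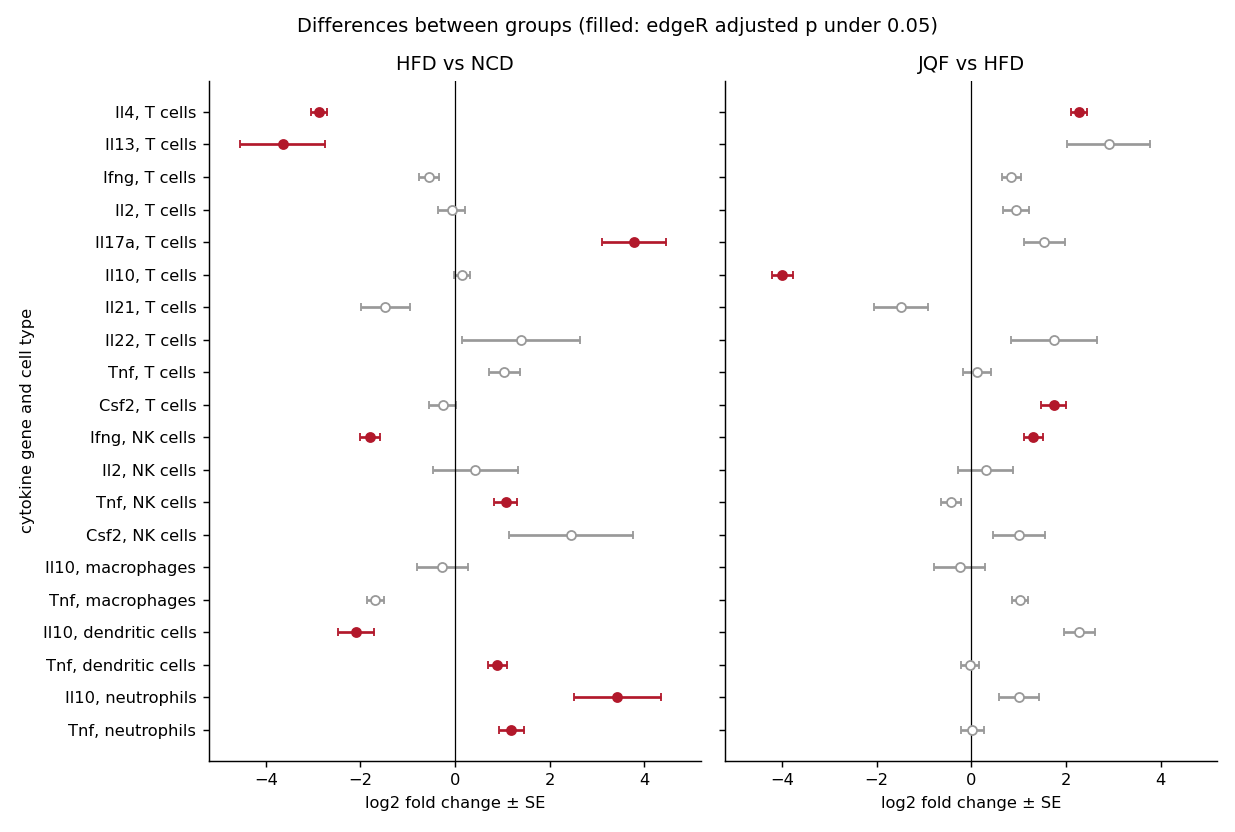
Points give edgeR log2 fold changes with standard errors for the cytokine genes in 5 cell types, HFD against NCD on the left and JQF against HFD on the right; filled points passed the test. Il4 in T cells and Ifng in NK cells lie below 0 on the left and above 0 on the right, and Il10 in T cells lies at -3.99 on the right.

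Several cytokines were read in the same T cells. Of T cells with Il4, 79.5%, 55.9%, 59.9% and 79.9% also had Ifng in NCD, HFD 1, HFD 2 and JQF, against 63.7%, 42.8%, 52.9% and 59.6% of T cells without Il4. Csf2 was found in 17.1%, 10.3%, 10.2% and 16.6% of Il4-positive T cells and in 2.40%, 2.21%, 2.51% and 6.97% of the rest. Il10 was found in 1.37%, 2.07%, 2.72% and 1.65% of Il4-positive T cells, against 13%, 12.6%, 13.1% and 1.97% of the rest. Il17a and Ifng seldom met: 1 of 3, 3 of 22, 2 of 21 and 16 of 93 Il17a-positive cells had Ifng. T cells with none of the 10 genes were 19.5%, 32.9%, 28.6% and 15.1%, and their median depths were 9539, 6333, 5532 and 7109 UMIs, below those of cells with 3 of the genes (11231, 8201, 7930 and 8808 UMIs), so depth moves with these counts.

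Other genes were read together with a cytokine in single T cells, given here as a description. The 5 genes with the largest ratio of detection in Il4-positive to Il4-negative T cells were Tceal3, Mmp9, Fam184a, Npas2 and Traj18, the last a joining segment of the invariant NKT receptor, found in 31.5%, 11%, 10.2% and 13.4% of Il4-positive T cells against 4.11%, 1.49%, 1.25% and 5.30% of the rest. For Il10 they were Neb, Itgb8, Dlg2, Perp and Zbtb32, for Il21 Cacna1s, Gm49180, Cacna1d, Gpm6b and Ccdc141, for Ifng Spry2, Pcbp4, 2900026A02Rik, Ccl3 and Rnf128, for Tnf Rsad2, Lta, Gm31718, Cass4 and Ifi211, and for Il2 E2f8, Hist1h2af, Kif20a, Cdca5 and Mxd3. Over 28 cell type by library points, which share libraries and depth, the gene most like Il4 was Cd40lg (Pearson r 0.93 of log2(CPM + 1)), which encodes the helper ligand CD40L. The closest to Ifng was the T cell receptor gene Trbc1 (r 0.98), to Il17a Cdh10 (r 0.96), to Tnf Gsap (r 0.94), to Il10 Gm50105 (r 0.81), to Il2 Sv2c (r 0.85), to Csf2 Gm27162 (r 0.95), to Il13 1700062C10Rik (r 0.96), to Il21 4930549P19Rik (r 0.96) and to Il22 Trav11 (r 0.93).

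Transcription factors and receptors of these pathways were read from lists of known genes, against backgrounds of 11.2% and 0.928% of all genes called in T cells and 14.8% and 2.9% in NK cells. Of 24 regulators, 10 were called in T cells in HFD against NCD, 1 higher and 9 lower, and 4 in JQF against HFD, 3 higher and 1 lower. Zbtb16 stood at 519.7 CPM in NCD, 91.5 and 71.4 CPM in HFD 1 and HFD 2 and 334 CPM in JQF, and is among the markers that define the NKT-like gate. Nr4a3, an orphan receptor induced by T cell receptor signals, stood at 1609, 203, 161 and 603 CPM. In NK cells 13 of 23 regulators tested were called in HFD against NCD, 2 higher and 11 lower, and 4 in JQF, all higher, among them Nr4a1, Nr4a2 and Nr4a3. Of 18 receptor genes tested in T cells, 7 were called in HFD against NCD, 2 higher and 5 lower, with Il21r at 919.7, 147, 165 and 233 CPM and Il4ra, the receptor chain for Il4 and Il13, at 184, 72.1, 62.0 and 121 CPM. In JQF against HFD 3 were called, Il2ra and Il4ra higher and Il10ra lower. Of 13 genes that degrade cytokine transcripts or feed back on their signals, 1 was called in T cells in HFD (Socs3 lower) and 9 in NK cells, all lower, among them Tnfaip3 and Zc3h12a.

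Target genes of the cytokines gave mixed counts in the cells that would receive them. In neutrophils, where 15% of all genes were called in HFD against NCD, 7 of 14 Ifng target genes tested were called, 6 higher and 1 lower. In dendritic cells, where 23.3% were called, 6 of 15 were called, all lower. In macrophages, where 0% of all genes were called, 0 of 15 were called, at a median log2 difference of -0.73 against 0.06 over all genes. Of 11 Il4 and Il13 targets tested in dendritic cells, 4 were called in HFD against NCD, 2 higher and 2 lower, and 1 in JQF against HFD, where 0.367% of all genes were called. That gene, the chemokine gene Ccl17, stood at 62.4, 18.4, 10.4 and 98.4 CPM and was called in both comparisons, at -2.22 (SE 0.28; edgeR adjusted p = 0.00430) and 2.85 (SE 0.25; edgeR adjusted p = 0.0150). In macrophages 0 of 11 Il4 and Il13 targets and 0 of 12 Tnf targets were called. As 0 of all 13046 genes tested there were called in either comparison, these counts say nothing about the targets. In T cells, where 11.2% of all genes were called in HFD against NCD and 0.928% in JQF against HFD, 3 of 12 Tnf targets were called in HFD, 1 higher (Cxcl2) and 2 lower (Relb and Birc3). Of 18 other cytokine genes tested in T cells, 4 were called in HFD against NCD, Il1b, Il16 and Ltb higher and Il27 lower, and 1 in JQF, Xcl1, at 180.2, 198, 175 and 485 CPM.

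Markers of other cells were present in the T cell gate and differed by library. Summed endothelial markers stood at 68.4 CPM in NCD T cells and 4.04 to 15.7 CPM in the others, hepatocyte markers at 350.3 against 45.3 to 161 CPM, macrophage markers at 14.4 against 25.3 to 101 CPM, and monocyte markers at 155 against 314 to 388 CPM, beside 2654 to 4068 CPM of T cell markers. Il1b and Cxcl2, called higher in HFD T cells, are genes of myeloid cells. The part of such RNA in the T cell values was not tested, and with 1 library each, NCD and JQF cannot be told apart from the preparation of their libraries.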

How the data were processed

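The deposited files hold UMI counts per gene and cell barcode. They were made by the authors from 10x 3' v3.1 libraries of perfused, digested livers after removal of dead cells. Per the labels' processing notes, Cell Ranger 6.0.1, Seurat 4.0.3 and the mm10 build were used; the headers of the filtered matrices name a later Cell Ranger. The counting settings are not given in the sources used here.

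Cells were kept if they had 500 or more genes and no more than 20% of UMIs from mitochondrial genes. Cell types were gated by the number of marker genes with a UMI, using no cytokine gene, and 95.7% of gated T cells, 95.0% of NK cells, 96.9% of neutrophils, 77.7% of macrophages and 65.0% of dendritic cells lay in matching clusters of a Leiden clustering, while 68.9% of cells in NK clusters were gated as NK cells. Cells carrying markers of several types were left out, and removing predicted doublets was an alternative. Counts summed per library and cell type were fitted across all genes by edgeR 4.0.16 (R 4.3.3, limma 3.58.1) with quasi-likelihood tests, TMM scaling, filterByExpr and Benjamini-Hochberg adjustment at 0.05, over all 4 libraries and in cell types with at least 50 cells in each. The labels count 1, 2 and 1 liver samples in NCD, HFD and JQF without naming animals, and p-values measure only the spread between the HFD pair. Shares have Clopper-Pearson and CPM exact Poisson 95% intervals, which cover counting error only. The fits were tested on simulated data. Alternatives were DESeq2 1.42.0, no TMM factor, no filter, doublets removed, stricter cell filters (1000 genes, 10% mitochondrial UMIs), Leiden clusters, thinning to 3000 UMIs and leaving out an HFD library.

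The genes described and the pathway lists were chosen with earlier results of these data known. All 10 cytokine genes are given. Other list members are named only past the threshold, at most the 4 with the smallest adjusted p per list, cell type and comparison, beside the genes closest in pattern; the Csf2 list of genes read in the same cells is not reported here. Count ratios and the fits on T cell gates were chosen after seeing the data.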

Additional observations from a re-analysis of the deposited data

Results flagged for a closer look

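Il10 differed in direction between cell types, and each value here is an edgeR log2 fold change. In HFD against NCD it was 3.43 in neutrophils and -2.09 in dendritic cells. The neutrophil value rests on 1 NCD UMI. Its sign was fixed by the filter on low counts, and 4 of 6 alternatives lost the call. The dendritic cell value became 5.36 after thinning, fitted against no NCD UMI, and is no bound. This contrast of signs is thus a description and supports nothing. In JQF against HFD it was -3.99 in T cells, 2.28 in dendritic cells and 1.01 in neutrophils, of which only the T cell value passed the test. Every HFD library lay on the stated side of the NCD or JQF value in each of these cell types. The differences between cell types were not themselves tested.

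Tnf was also of opposite sign in HFD against NCD, at 1.04 in T cells, 1.06 in NK cells, 0.89 in dendritic cells and 1.18 in neutrophils but -1.68 in macrophages. The T cell and macrophage values did not pass the test (edgeR adjusted p = 0.0766 and 0.0575). The difference between macrophages and the other cell types was not tested. The share of Kupffer cells among macrophages also differed by library. Kupffer cells carried less Tnf than macrophages as a whole in every library, and less in HFD than in NCD. The part of the make-up of the gate in the macrophage value was not tested.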

How the results depend on the processing

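No paired analysis was run because the labels give no pairing of samples across groups. Of 95 values of the 14 called cytokine results under the alternatives listed in the methods, 84 kept their direction and call, 9 lost the call and 2 reversed. Of 249 values of uncalled results, 209 stayed uncalled in the same direction, 28 became called and 12 reversed. Those newly called were, in HFD against NCD, Csf2 in NK cells (2 alternatives), Il21 (1) and Tnf (3) in T cells, Il2 (1) and Tnf (5) in macrophages and Ifng (1) in neutrophils, and, in JQF against HFD, Il2, Il4 and Tnf in NK cells (1 each, with Leiden clusters), Ifng (3), Il13 (1), Il17a (2) and Il21 (1) in T cells, Ifng (2) and Il10 (2) in dendritic cells and Tnf (1) in macrophages; dropping the filter on low counts gave 12 of them. In fits without the third group, chosen after seeing the data, 13 of 14 calls were kept, all but Il13 in T cells (edgeR adjusted p = 0.0619). Leaving out an HFD library leaves no residual degrees of freedom, so it gives values and no test: Il4 in T cells then lay between -2.92 and -2.85 in HFD against NCD, Il10 in T cells between -4.07 and -3.89 in JQF against HFD, Il17a in T cells between 2.92 and 4.31, Ifng in NK cells between -1.96 and -1.63 in HFD against NCD, and Il10 in neutrophils between 2.37 and 4.05. Monocytes could not be fitted, with under 50 NCD cells. Calls lost were Csf2 in T cells without doublets (edgeR adjusted p = 0.0585), Il13 in T cells (0.0722) and Tnf in dendritic cells (0.108) after thinning, Tnf in NK cells (0.129) and in dendritic cells (0.0857) with DESeq2, and Il10 in neutrophils under 4 alternatives. The 2 reversed were Il4 in NK cells with Leiden clusters (edgeR adjusted p = 0.839) and Il10 in dendritic cells after thinning (0.46). The thinned dendritic cell value was fitted against no NCD UMI. The causes were not tested.

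Counts of genes called moved by over 1.5 times as follows. In T cells HFD against NCD gave 1659, but 2990 without the filter and 1045 with DESeq2, and JQF against HFD gave 138, but 783 without the filter, 227 with stricter cell filters and 472 after thinning. In NK cells they gave 1507, but 508 with DESeq2, 2927 with Leiden clusters and 872 after thinning, and 295, but 132 without TMM, 637 without the filter, 54 with DESeq2, 478 without doublets, 954 with Leiden clusters and 113 without NCD in the fit. In macrophages they gave 0, but 1382 without TMM, 4107 without the filter, 802 with DESeq2, 1038 without doublets, 2 with stricter cell filters and 806 after thinning, and 0, but 708 without the filter, 23 with DESeq2 and 14 after thinning. In dendritic cells they gave 3310, but 1338 with DESeq2 and 955 after thinning, and 52, but 309 without TMM, 699 without the filter, 17 without doublets and 19 with stricter cell filters. In neutrophils they gave 1375, but 296 with DESeq2, 631 without doublets, 838 with stricter cell filters and 414 after thinning, and 105, but 61 without TMM, 4 with DESeq2, 3 without doublets, 4 with stricter cell filters, 35 with Leiden clusters and 2 after thinning.

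The log2 fold changes that reversed follow. With Leiden clusters in HFD against NCD, Il2 was -0.72 and Il4 0.50 in NK cells, Il2 0.10 in T cells, Ifng 0.72 in dendritic cells and Il10 0.22 in macrophages. After thinning in the same comparison, Il10 was -0.052 and Il2 0.67 in T cells and Il10 5.36 in dendritic cells. Against T cells as a whole in HFD against NCD, Csf2 was 0.68 in CD8, 7.32 in CD4 and 0.43 in T cells without NKT-like cells, Il10 was -1.38 in CD4 and -0.036 in T cells without NKT-like cells, Il2 was 0.86 in NKT-like and 0.85 in CD4, and Il21 was 4.25 in CD8 cells. In JQF against HFD, Il17a was -1.16, Il22 -2.66 and Tnf -0.39 in NKT-like cells, and Il21 was 0.14 and Tnf -0.39 in CD4 cells. There, Il2 in dendritic cells was -0.051 without TMM and -0.0012 without doublets, and Tnf in neutrophils was -0.0024 without TMM, -0.24 without doublets, -0.33 with Leiden clusters and -0.36 after thinning. The CD4 Csf2 value of 7.32 and the thinned dendritic cell Il10 value of 5.36 were each fitted against 0 NCD UMIs and are no bounds. Depth limits the rarer genes: 30 of 40 shares of T cells with a UMI were at least 1%, and 26 after thinning.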
